A study of Mus musculus with 51 samples.

Results

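Hoxd3, Hoxd4, Hoxd8 and Hoxd9 are the 4 genes of the HoxD cluster described here, out of 39 Hox genes with log2 RPKM values and 35591 genes with read counts. They were taken by name from the values of the differentiation time course and, for the ground state, from the counts of the cells kept in 2i + LIF. They are given in their order in the cluster, starting at its anterior end.

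Hox genes encode homeodomain transcription factors that give cells along the head to tail axis their positional identity. Within a cluster, genes at one end are switched on early and act anteriorly, and genes towards the other end follow later and act more posteriorly. In pluripotent cells the HoxD cluster is held silent under Polycomb marks, and it opens when caudal progenitors respond to Wnt and FGF signals. Hoxd3 and Hoxd4 pattern the cervical vertebrae and hindbrain, whereas Hoxd8 and Hoxd9 act in the trunk, and Hoxd9 also in the limb.

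RNA was sequenced from male mouse embryonic stem cells (mESCs) of C57BL/6/Cast F1 hybrids. The control cells, Smchd1 wt, carried Smchd1 fl/+. The Smchd1 mat del cells carried one deleted allele and came from oocytes in which Zp3-Cre, driven from an oocyte promoter, had removed the chromatin repressor SMCHD1, so that they lacked the maternal protein but kept a paternal allele. The study used the comparison to ask whether maternal SMCHD1 sets how Hox genes are later switched on. Lines in 2i + LIF medium, where kinase inhibitors and leukaemia inhibitory factor hold cells in the pluripotent ground state, gave 3 libraries per genotype. The time course gave 45 libraries, 23 Smchd1 wt and 22 Smchd1 mat del, at 6 times, days 0, 1 and 2 and then days 2.5, 3 and 4. Day 0 cells were in the medium labelled DME LIF. Differentiation ran in N2B27 medium with basic FGF throughout, the Wnt activator CHIR99021 was added from day 2 to make neuromesodermal progenitors (NMPs), and GDF11 from day 3. Each group held 4 libraries, except 3 at day 1 of Smchd1 wt and at days 0 and 2.5 of Smchd1 mat del. Replicate 4 is labelled line 2 and the others line 1, and some replicates of a line are technical, so the p-values below measure in part a technical spread. By the labels, Smchd1 mat del holds line 1 only at days 0 and 2.5, whereas the study's text describes both lines there. By the labels, a difference between genotypes and one between lines cannot be told apart on those days. On the other days line 2 gives 1 library per group and the genotypes share no line. Genotype and line can therefore be told apart there only in small part.

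The values imply library sizes between 346039 reads (Smchd1 wt day 2, replicate 4) and 126805796 reads (Smchd1 mat del day 2, replicate 4), and 10 of the 45 libraries lie under 5000000. A gene without a read is listed as if it had 0.9 reads, so its log2 RPKM reflects only the depth of the library. Over the whole course the summed RPKM of 6 pluripotency markers fell with the labels of day, from a median of 9.48 at day 0 to 5.49 at day 4 of Smchd1 wt on the log2 scale, and that of 6 markers of NMPs and caudal epiblast rose from 0.45 at day 2 to 7.80 at day 2.5. The same medians in Smchd1 mat del were 9.26 and 5.96 for pluripotency markers and 0.40 and 8.04 for NMP markers. In 4 libraries Pou5f1, the gene of the pluripotency factor OCT4, lay more than 3 log2 units under the median of its group. These were replicate 3 of Smchd1 mat del day 0 (4.77), of Smchd1 wt day 2 (4.88) and of Smchd1 mat del day 2.5 (4.42), and replicate 4 of Smchd1 mat del day 1 (-4.63). The read numbers recovered from the log2 RPKM values equal the deposited counts of the same name in 7 libraries only, those of another name in 35 and those of no name in 3. The counts of the time course were therefore not used, and the labels of the log2 RPKM columns were taken as they stand. Which names are right is not known, so the genotype, day and replicate of the time course values are uncertain to that extent. The counts of the 2i + LIF lines come from the same set of counts, and their names were not checked in this way.

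All 4 genes lie on the plus strand of chromosome 2 (GRCm38.p6). The probe of Hoxd9 spans positions 74697727 to 74700208, that of Hoxd8 74704615 to 74707933, that of Hoxd3 74711927 to 74748442 and that of Hoxd4 74711929 to 74729160. Their exons, over which the reads were counted, add up to 2136 bases for Hoxd9, 2744 for Hoxd8, 4191 for Hoxd3 and 2948 for Hoxd4. The Hoxd3 and Hoxd4 probes overlap. They share 388 exon bases, which is 9.26% of the exons of Hoxd3 and 13.2% of those of Hoxd4. Gm28230 covers 53.1% of the exon bases of Hoxd3 and 39.1% of those of Hoxd4, and the antisense gene Hoxd3os1 shares 347 bases with each. The libraries were made with stranded or non-stranded kits, so the levels of Hoxd3 and Hoxd4 are uncertain by what these genes share, whereas Hoxd8 and Hoxd9 share no exon base with the genes examined for overlap.

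The 250 bases before the RefSeq start of each gene (GRCm38.p6, plus strand) are printed to show the promoters of genes that rose together in the time course. Capitals mark matches, on either strand, to 4 short motifs, the TCF/LEF core CTTTGA of Wnt targets, the CDX core TTTATG, the TATA box TATAAA and the GC box GGGCGG. They are given in the order chr2:74711743-74711992, chr2:74721728-74721977, chr2:74704365-74704614 and chr2:74697513-74697762.
Hoxd3: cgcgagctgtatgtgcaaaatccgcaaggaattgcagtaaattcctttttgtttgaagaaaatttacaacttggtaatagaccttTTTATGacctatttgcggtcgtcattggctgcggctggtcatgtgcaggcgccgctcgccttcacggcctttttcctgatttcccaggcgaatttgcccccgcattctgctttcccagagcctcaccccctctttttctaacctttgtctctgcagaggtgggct
Hoxd4: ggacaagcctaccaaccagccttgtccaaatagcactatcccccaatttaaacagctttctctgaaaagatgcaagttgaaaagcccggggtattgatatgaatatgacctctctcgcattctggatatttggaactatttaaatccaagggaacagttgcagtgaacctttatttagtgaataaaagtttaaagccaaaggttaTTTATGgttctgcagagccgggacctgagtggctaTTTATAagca
Hoxd8: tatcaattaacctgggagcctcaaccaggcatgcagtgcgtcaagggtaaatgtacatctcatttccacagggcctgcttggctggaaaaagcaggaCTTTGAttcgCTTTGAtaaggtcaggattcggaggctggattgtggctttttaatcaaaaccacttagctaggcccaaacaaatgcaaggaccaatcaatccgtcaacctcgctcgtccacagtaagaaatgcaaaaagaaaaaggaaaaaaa
Hoxd9: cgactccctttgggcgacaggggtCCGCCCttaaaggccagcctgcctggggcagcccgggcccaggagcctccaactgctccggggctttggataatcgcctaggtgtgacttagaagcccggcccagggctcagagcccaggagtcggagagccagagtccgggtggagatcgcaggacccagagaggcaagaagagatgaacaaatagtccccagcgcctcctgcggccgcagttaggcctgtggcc

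The windows share no motif across all 4 genes. Hoxd8 held the TCF/LEF core at 2 places, with first bases 153 and 143 bases before the start, and 13.8% of all 32851 promoter windows of this length hold it. Hoxd3 (165 bases before the start) and Hoxd4 (45 bases before) each held the CDX core once, which 10.8% of all windows hold. Hoxd4 also held a TATA box 10 bases before its start, found in 12.4% of windows, and Hoxd9 a GC box 226 bases before its start, found in 32.7%. CpG dinucleotides numbered 12 for Hoxd3, 3 for Hoxd4, 6 for Hoxd8 and 13 for Hoxd9, against a median of 6. These matches describe the letters of the windows only. The windows follow RefSeq starts, which differ from the starts of some probes. Both the Hoxd3 probe (from 74711927) and the Hoxd4 probe (from 74711929) start within the Hoxd3 window, and the Hoxd4 window lies inside both probes. The Hoxd9 probe (from 74697727) starts within the Hoxd9 window.

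From day 0 to day 2 the 4 genes were at the edge of detection. Of 88 values in 22 libraries, 53 rested on no read, 19 on 1 to 3 reads and 4 on 10 reads or more. Hoxd3 had no read in 21 of these libraries and 1 read in the other. Hoxd4 and Hoxd9 had none in 12 each and Hoxd8 in 8, and the highest number was 52 reads of Hoxd8 in Smchd1 mat del day 2, replicate 4. The reads of a group, pooled over its libraries, placed Hoxd8 at 0.0937 RPKM at day 2 in Smchd1 wt (95% exact Poisson interval 0.0525 to 0.155, counting error only) and at 0.149 RPKM in Smchd1 mat del (0.117 to 0.188). Hoxd3 had 0 reads in the 4 libraries of day 2 of Smchd1 mat del, with an upper limit of the same interval at 0.00501 RPKM. It had 0 in those of Smchd1 wt, with an upper limit of 0.0151 RPKM. At day 1, the 15 Hoxd8 reads of Smchd1 mat del replicate 4 were the most of that day, in the library that was low for Pou5f1. In bulk RNA, fewer cells with a transcript and fewer transcripts per cell cannot be told apart.

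**Figure D1:**
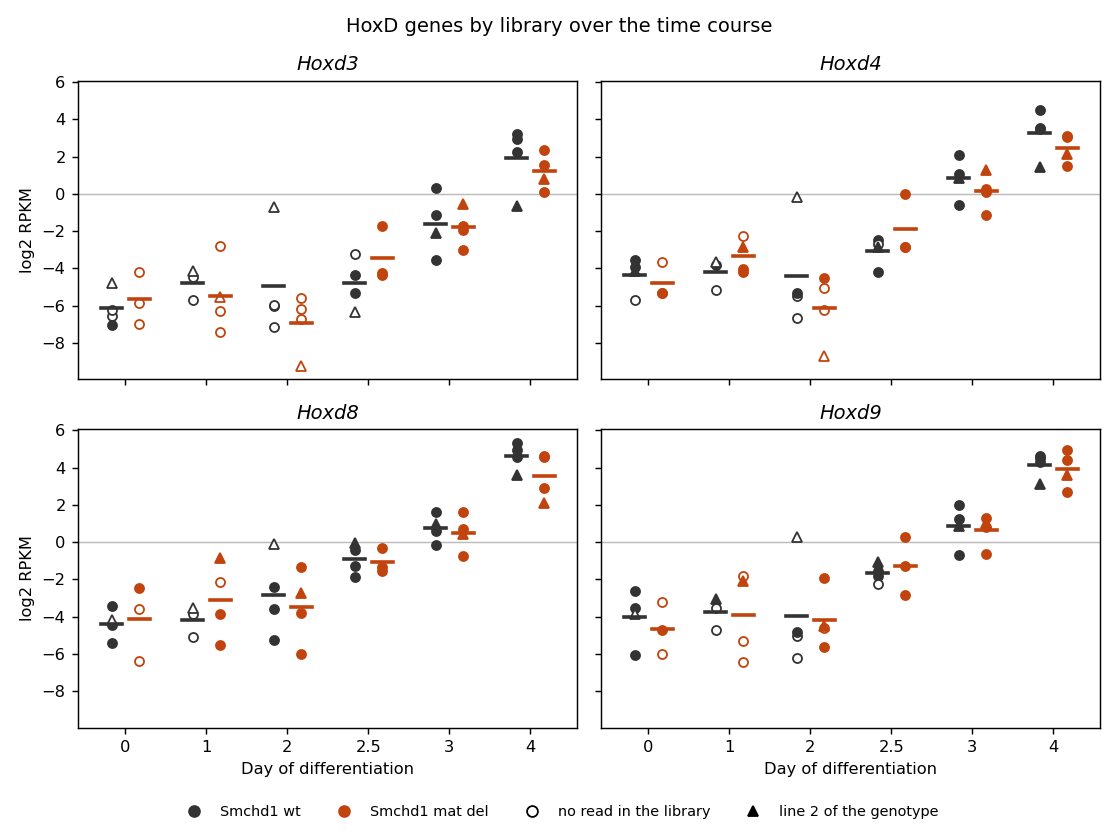
Log2 RPKM (y axis) of each gene in each library against the day of differentiation (x axis), for Smchd1 wt (grey) and Smchd1 mat del (orange); bars are group means, triangles are line 2 and open symbols are libraries without a read. Up to day 2, 53 of 88 values are open symbols, whose height reflects only depth, and all 8 libraries of day 4 lie above those of day 0 for every gene.

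Hoxd3, the most anterior of the 4 genes, was the last to reach 1 RPKM. At day 2.5 its log2 RPKM in Smchd1 wt was -4.38, -5.31, -3.21 and -6.33, the last 2 of these without a read, and in Smchd1 mat del -4.25, -4.33 and -1.72. The third value of Smchd1 mat del is the library low for Pou5f1 and stands above the others. At day 3 the values were -3.54, -1.15, 0.31 and -2.12 in Smchd1 wt and -3.00, -1.92, -1.72 and -0.54 in Smchd1 mat del. The genotypes overlapped, and 1 of the 8 libraries exceeded 1 RPKM. At day 4 the values reached 3.22, 2.94, 2.25 and -0.65 in Smchd1 wt and 2.37, 1.57, 0.10 and 0.78 in Smchd1 mat del, so that every library but Smchd1 wt replicate 4 (line 2) was above 1 RPKM. The day 4 mean in Smchd1 mat del, 2.73 ± 1.80 RPKM (SD, n = 4), was 163-fold the level that 3 reads over the group would give at day 0, where Hoxd3 had no read.

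Hoxd4, which encodes a factor of the anterior vertebrae, had reads in 10 of the 22 libraries up to day 2 and in 6 of 7 at day 2.5. Its log2 RPKM at day 2.5 was -2.46, -4.21, -2.70 and -2.86 in Smchd1 wt and -2.85, -2.83 and 0.01 in Smchd1 mat del. The high value was again replicate 3 of Smchd1 mat del, and the other libraries of both genotypes overlapped. At day 3 it was -0.61, 1.06, 2.06 and 0.85 in Smchd1 wt and -1.13, 0.11, 0.24 and 1.29 in Smchd1 mat del, with replicate 1 lowest in both. At day 4 it was 3.45, 4.52, 3.52 and 1.45 in Smchd1 wt and 3.11, 3.03, 1.48 and 2.12 in Smchd1 mat del. Here 3 of the 4 Smchd1 wt libraries were above every Smchd1 mat del library, and the line 2 library of Smchd1 wt was below all of them. The geometric means were 9.41 RPKM in Smchd1 wt and 5.40 RPKM in Smchd1 mat del.

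Hoxd8, a trunk gene, was the only one of the 4 with reads in every library of day 2.5. It then had at least 4 reads, and its log2 RPKM was -1.27, -1.84, -0.44 and -0.04 in Smchd1 wt and -1.32, -1.53 and -0.30 in Smchd1 mat del. All values lay under 1 RPKM and the genotypes overlapped. At day 3 it was -0.17, 0.58, 1.64 and 0.95 in Smchd1 wt and -0.72, 1.60, 0.70 and 0.45 in Smchd1 mat del, again with replicate 1 lowest in both. At day 4 it was 4.92, 5.32, 4.56 and 3.61 in Smchd1 wt and 4.59, 4.64, 2.89 and 2.09 in Smchd1 mat del, with replicates 3 and 4 of Smchd1 mat del below the lowest Smchd1 wt library. As linear means this was 26.5 ± 11.7 RPKM (SD, n = 4) in Smchd1 wt and 15.2 ± 10.9 RPKM (n = 4) in Smchd1 mat del.

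Hoxd9, the most posterior of the 4, followed Hoxd8 closely. Its log2 RPKM at day 2.5 was -1.53, -1.81, -2.24 and -1.04 in Smchd1 wt and -1.28, -2.83 and 0.28 in Smchd1 mat del. Replicate 3 of Smchd1 wt, a shallow library, had none, and replicate 3 of Smchd1 mat del was highest. At day 3 the values were -0.67, 1.24, 2.00 and 0.85 in Smchd1 wt and -0.62, 1.30, 0.84 and 1.01 in Smchd1 mat del. At day 4 they were 4.50, 4.61, 4.30 and 3.12 in Smchd1 wt and 4.42, 4.92, 2.70 and 3.62 in Smchd1 mat del, the highest and the lowest library both being Smchd1 mat del. Linear means were 18.9 ± 7.07 RPKM (SD, n = 4) and 17.6 ± 10.4 RPKM (n = 4).

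The first comparison was between days within a genotype, on log2 RPKM with limma over the 39 Hox genes and Benjamini-Hochberg adjustment at 0.05. Below, a gene is said to have risen where it was higher on the later day and passed this test. From day 0 to day 4 all 4 genes rose in Smchd1 wt, as did 84.6% of Hox genes, by 8.08 (Hoxd3), 7.57 (Hoxd4), 8.98 (Hoxd8) and 8.13 (Hoxd9) on the log2 scale. All 4 rose in Smchd1 mat del, where 79.5% of Hox genes did, by 6.86, 7.20, 7.68 and 8.55 in the same order. The size of these differences depends on how a gene without reads is listed. From the reads pooled over a group of Smchd1 wt, Hoxd4 was at 0.0557 RPKM at day 0 (95% exact Poisson interval 0.0288 to 0.0974) and at 5.73 RPKM at day 4 (5.47 to 6.00). Hoxd8 was at 0.0449 RPKM (0.0205 to 0.0853) and at 17.3 RPKM (16.8 to 17.8), intervals that leave out the spread between libraries. None of the 4 genes passed limma's test from day 0 to day 1 or from day 1 to day 2 in either genotype (0.0% of Hox genes in each), and of these 16 values the difference of -2.80 for Hoxd4 from day 1 to day 2 in Smchd1 mat del had a limma adjusted p of 0.499, and it alone had an unadjusted p under the threshold of 0.05.

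From day 2 to day 2.5, over which CHIR99021 was first present, 0 of 4 genes passed in Smchd1 wt (2.56% of Hox genes) and 4 of 4 in Smchd1 mat del (64.1%). The Smchd1 wt group of day 2 holds the library of 346039 reads, in which all 4 genes are listed without a read at values between -0.69 and 0.28. Without that library Hoxd4, Hoxd8 and Hoxd9 rose in Smchd1 wt as well, by 2.76, 2.85 and 3.70, and edgeR on the recovered reads, which weighs depth, called 4 of 4. The share of all Hox genes called in these alternatives is not given, so the counts do not set the 4 genes apart. In Smchd1 mat del the rises were 3.50 ± 1.05 (SE) for Hoxd3, 4.25 ± 1.05 for Hoxd4, 2.42 ± 1.05 for Hoxd8 and 2.88 ± 1.05 for Hoxd9, with limma adjusted p-values of 0.00300, 0.000310, 0.0341 and 0.0121. The sizes for Hoxd3 and Hoxd4 are set by values without a read, as the day 2 libraries held 0 reads of Hoxd3 and 2 of Hoxd4 in all. With log2(RPKM + 1) none of the 4 genes passed, and the difference for Hoxd3 was 0.16. Hoxd3 and Hoxd4 did not overlap between these days, and 61.5% of Hox genes did not. Without replicate 3 of day 2.5, the library low for Pou5f1, 1 of 4 genes passed.

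From day 2.5 to day 3, 3 of 4 genes rose in Smchd1 wt, where 41.0% of Hox genes did. The log2 rise was 3.18 ± 0.99 (SE) for Hoxd3, 3.90 ± 0.99 for Hoxd4 and 2.51 ± 0.99 for Hoxd9 (adjusted p by limma 0.00894, 0.00199 and 0.0346), and the difference for Hoxd8 was 1.65 ± 0.98 (adjusted p = 0.186). In Smchd1 mat del, where 35.9% of Hox genes rose, Hoxd4 and Hoxd9 rose by 2.02 ± 0.75 and 1.91 ± 0.74 (adjusted p by limma 0.0435 for both), and Hoxd3 and Hoxd8 differed by 1.64 ± 0.74 and 1.56 ± 0.70 (adjusted p = 0.0738 for both). With line 1 only, 0 of 4 genes passed in either genotype, and without replicate 3 of day 2.5 all 4 passed in Smchd1 mat del. The share of all Hox genes passing in these alternatives is not given, so these counts are not particular to the 4 genes.

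From day 3 to day 4, after GDF11 was added, 3 of the 4 genes rose further in Smchd1 wt and all 4 in Smchd1 mat del. In Smchd1 wt Hoxd3, Hoxd8 and Hoxd9 rose by 3.56 ± 1.09 (SE), 3.85 ± 1.03 and 3.28 ± 1.03 (adjusted p by limma 0.00810, 0.00201 and 0.00948), against 30.8% of Hox genes, and the difference for Hoxd4 was 2.40 ± 1.05 (adjusted p = 0.0760). In Smchd1 mat del all 4 rose, against 33.3% of Hox genes, by 3.00 ± 0.73, 2.30 ± 0.70, 3.04 ± 0.77 and 3.28 ± 0.71 for Hoxd3, Hoxd4, Hoxd8 and Hoxd9 (adjusted p by limma 0.00579, 0.0176, 0.00687 and 0.00246). All 4 genes were without overlap between these days in Smchd1 mat del (25.6% of Hox genes), and Hoxd8 and Hoxd9 in Smchd1 wt (30.8%). Without replicate 1 of day 4, 1 of 4 genes passed in Smchd1 wt, a count given without the share of all Hox genes.

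Per exon length, Hoxd3 had the lowest mean of the 4 genes at days 3 and 4, and the gaps between the genes changed. At day 4, over the 8 libraries of both genotypes, Hoxd8 had a mean log2 RPKM of 4.08, Hoxd9 of 4.02, Hoxd4 of 2.83 and Hoxd3 of 1.57. Hoxd8 and Hoxd9 did not differ beyond their spread, with a within-library difference of 0.05 ± 0.70 (SD, n = 8, exact sign-flip test, two-sided p = 0.875). Hoxd9 exceeded Hoxd4 in 8 of 8 libraries by 1.19 ± 0.56, and Hoxd4 exceeded Hoxd3 in 8 of 8 by 1.26 ± 0.56. The exact sign-flip p was 0.00781 for each, the smallest this design gives, and 0.0234 after Benjamini-Hochberg adjustment over 9 pairs at 3 days. The pairs were those next to each other when the genes were ranked by mean in these same libraries. Their p-values are therefore no independent test of the ranking, and they treat replicates of a line as separate samples. At day 3, Hoxd9, Hoxd8 and Hoxd4 lay close together at 0.74, 0.63 and 0.48, and Hoxd4 exceeded Hoxd3 by 2.19 ± 0.49 in 8 of 8 libraries (exact p = 0.00781, adjusted 0.0234). At day 2.5 no p-value is given, since 4 of the 28 values rest on no read and their differences are then set by depth and exon length. Where both genes had reads, Hoxd4 exceeded Hoxd3 in 5 of 5 libraries. Hoxd8 exceeded Hoxd9 in 4 of the 7 libraries of that day, a count that includes Smchd1 wt replicate 3, which had no Hoxd9 read. Hoxd3, which is anterior to Hoxd4 in the cluster, was thus the lower of these neighbours at days 3 and 4.

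**Figure D2:**
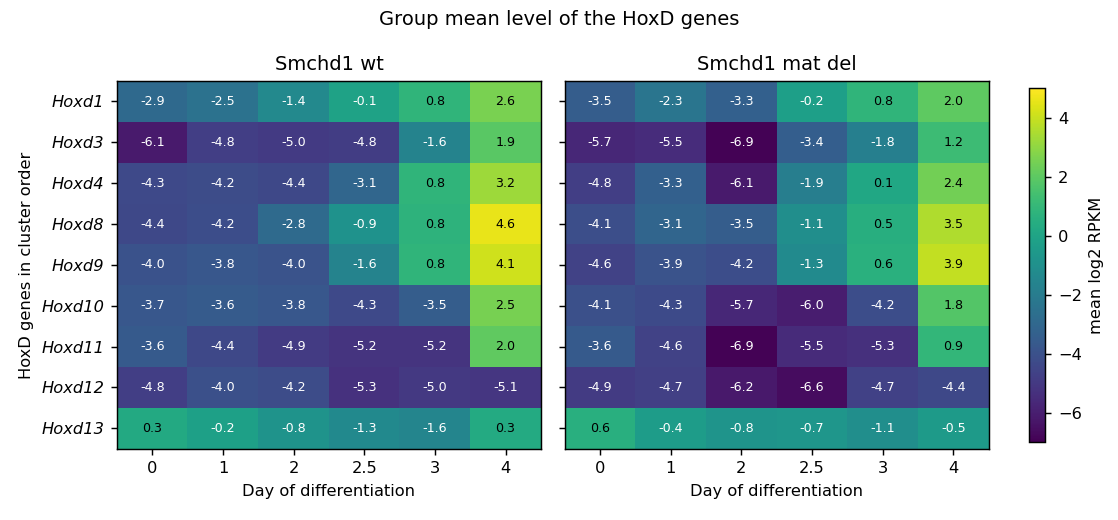
Mean log2 RPKM (colour and printed value) of the 9 HoxD genes, in cluster order from Hoxd1 at the top, by day of differentiation (x axis) in Smchd1 wt (left) and Smchd1 mat del (right). Hoxd8 and Hoxd9 have the highest means of the cluster at day 4 in both panels, and Hoxd12 has the lowest.

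Set within the cluster, Hoxd4, Hoxd8 and Hoxd9 first had a group median above 1 RPKM at day 3 in both genotypes, like Hoxd1, the gene at the anterior end. Hoxd3 crossed that level at day 4, together with the posterior genes Hoxd10 and Hoxd11. Of the 5 other HoxD genes, Hoxd10 and Hoxd11 rose from day 3 to day 4 in Smchd1 wt, by 6.00 and 7.26 (limma adjusted p = 1.52e-05 and 8.68e-07), and both rose in Smchd1 mat del, by 5.93 and 6.28 (0.000513 and 0.000142). The median of Hoxd12 stayed under 1 RPKM in every group. The median of Hoxd13, the terminal gene of the cluster, was just above 1 RPKM at day 0 (log2 RPKM 0.30 in Smchd1 wt and 0.34 in Smchd1 mat del). It was under 1 RPKM from day 1 to day 3 in both genotypes, and at day 4 it was 0.19 and -0.44. Among all 39 Hox genes ranked by day 4 mean in Smchd1 wt, Hoxd8 was 2nd, Hoxd9 3rd, Hoxd4 11th and Hoxd3 26th. Among those of Smchd1 mat del Hoxd9 was 2nd, Hoxd8 3rd, Hoxd4 10th and Hoxd3 25th.

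The 10 paralogues of these genes in the other clusters, which share their group number and much of their homeodomain, are given beside them. From day 2 to day 2.5, 9 of 10 passed limma's test as higher in Smchd1 mat del (64.1% of Hox genes) and 0 of 10 in Smchd1 wt (2.56%). All 10 had a higher mean at day 2.5 in Smchd1 wt too, with a median difference of 1.85 against 3.54 in Smchd1 mat del. The Smchd1 wt group of day 2 holds the library of 346039 reads. No Hox gene passed for the genotype difference of this change (0.0%). From day 2.5 to day 3, 7 of 10 passed in Smchd1 wt (41.0% of Hox genes) and 4 of 10 in Smchd1 mat del (35.9%). From day 3 to day 4, 2 of 10 passed in Smchd1 wt (30.8%) and 3 of 10 in Smchd1 mat del (33.3%). The median difference of the paralogues from day 3 to day 4 was 1.09 in Smchd1 wt and 0.80 in Smchd1 mat del. It was 3.42 and 3.02 for the 4 HoxD genes and 1.29 and 0.79 for all Hox genes. Hoxb9, the HoxB counterpart of Hoxd9, went from 3.58 ± 1.78 (mean log2 RPKM and SD, n = 4) on day 3 to 4.69 ± 0.65 on day 4 in Smchd1 wt, where Hoxd9 went from 0.85 ± 1.12 to 4.13 ± 0.69. Hoxa9 and Hoxc9 went from -0.50 ± 1.47 and -1.80 ± 1.00 to 4.00 ± 1.18 and 3.08 ± 0.66 over the same days. Hoxb8 was at 2.71 ± 1.54 and 2.82 ± 1.27, where Hoxd8 went from 0.75 ± 0.75 to 4.60 ± 0.73. The difference in timing between the HoxD genes and their paralogues was not tested.

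The 4 genes came to hold a larger part of the Hox transcripts. Their share of the RPKM summed over 39 Hox genes was 1.94% ± 1.03 (SD, n = 4) at day 2.5, 4.89% ± 2.13 at day 3 and 20.3% ± 3.87 at day 4 in Smchd1 wt. In Smchd1 mat del it was 2.90% ± 2.53 (n = 3), 4.51% ± 1.21 (n = 4) and 21.2% ± 1.51 (n = 4). The libraries of the genotypes overlapped on each of these days, and every day 4 library lay above every day 3 library. The shares of days 0 to 2 rest largely on values without a read and are shown only in the plot of the share by library.

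**Figure D3:**
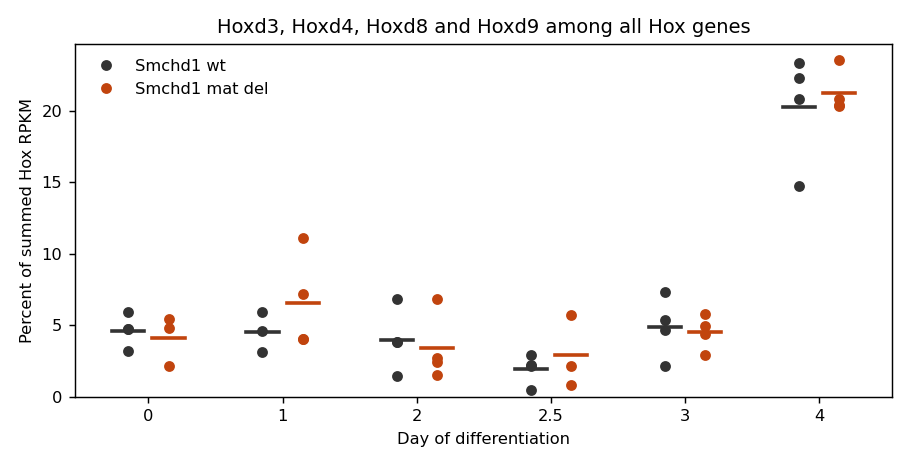
Share of the summed RPKM of 39 Hox genes (y axis, percent) held by Hoxd3, Hoxd4, Hoxd8 and Hoxd9 in each library, by day of differentiation (x axis), for Smchd1 wt (grey) and Smchd1 mat del (orange); bars are group means. The day 4 libraries sit between 14.7% and 23.5%, above all others.

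Over the 45 libraries, the 4 genes resembled each other and a few genes of the HoxA and HoxC clusters. The Pearson r of log2(RPKM + 1) between pairs of them lay between 0.935 (Hoxd3 and Hoxd9) and 0.980 (Hoxd8 and Hoxd9). Among 72 other Hox genes and differentiation factors, the 3 most alike were Hoxa9 (0.969), Hoxd4 (0.955) and Hoxd8 (0.938) for Hoxd3. For Hoxd4 they were Hoxd9 (0.974), Hoxc8 (0.965) and Hoxa9 (0.965). For Hoxd8 they were Hoxa9 (0.981), Hoxd9 (0.980) and Hoxc6 (0.965), and for Hoxd9 they were Hoxd8 (0.980), Hoxd4 (0.974) and Hoxa9 (0.968). These values describe 45 points that share libraries, days and depth, and Hoxd3 and Hoxd4 also share exon bases.

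The second comparison was between the genotypes on the same day, Smchd1 mat del minus Smchd1 wt. None of the 4 genes passed limma's test on any day, and neither did any of the 39 Hox genes (0.0% on each of 6 days), nor did any of the 4 have an unadjusted p under 0.05. At day 2.5 the difference was 1.37 for Hoxd3 (95% interval -0.24 to 2.98), 1.17 for Hoxd4 (-0.44 to 2.78), -0.15 for Hoxd8 (-1.76 to 1.46) and 0.38 for Hoxd9 (-1.23 to 1.99), with limma adjusted p-values of 0.563 for Hoxd3, 0.597 for Hoxd4, 0.792 for Hoxd9 and 0.90 for Hoxd8. The groups overlapped for all 4. Without Smchd1 mat del replicate 3, the library low for Pou5f1, the differences were 0.51, 0.22, -0.53 and -0.40. In edgeR on the recovered reads Hoxd3 and Hoxd4 were higher in Smchd1 mat del by 2.33 and 1.89 log2 units with unadjusted p-values of 0.00778 and 0.0125 and an adjusted p of 0.166 for both. Over 16 alternatives each, the adjusted p of these genes ranged from 0.153 to 0.894 and from 0.166 to 0.894.

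At day 3 the differences were -0.17 (95% interval -2.04 to 1.70), -0.71 (-2.58 to 1.16), -0.24 (-2.12 to 1.63) and -0.22 (-2.09 to 1.65) for Hoxd3, Hoxd4, Hoxd8 and Hoxd9 (limma adjusted p = 0.985 for each). At day 4 they were -0.73 (-2.79 to 1.32), -0.80 (-2.61 to 1.01), -1.05 (-2.84 to 0.74) and -0.22 (-1.90 to 1.46), with limma adjusted p-values of 0.649 for the first 3 and 0.785 for Hoxd9. All 4 genes had the lower mean log2 RPKM in Smchd1 mat del on both days, as did 29 of 39 Hox genes at day 3 and 34 of 39 at day 4, and the median difference of the 4 at day 4, -0.77, was close to that of all Hox genes, -0.75. On reads pooled over day 4 the order turned for Hoxd3, with 2.73 RPKM in Smchd1 wt and 2.79 in Smchd1 mat del. It also turned for Hoxd4 (5.73 and 5.89) and Hoxd9 (12.8 and 16.8), and not for Hoxd8 (17.3 and 15.2). Pooling weighs libraries by depth, and Smchd1 wt replicate 4 (line 2) held 73851249 reads. The other Smchd1 wt libraries of day 4 held 16782982, 2678804 and 15387570. Replicate 4 was the lowest Smchd1 wt library for all 4 genes, so its low levels weigh most in the pooled Smchd1 wt values. The intervals leave room for differences of more than 2-fold in either direction for Hoxd3, Hoxd4 and Hoxd9. With line 1 only, the day 4 differences were -1.45, -1.29, -0.90 and -0.46 (limma adjusted p = 0.519 for the first 3 and 0.693 for Hoxd9).

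**Figure D4:**
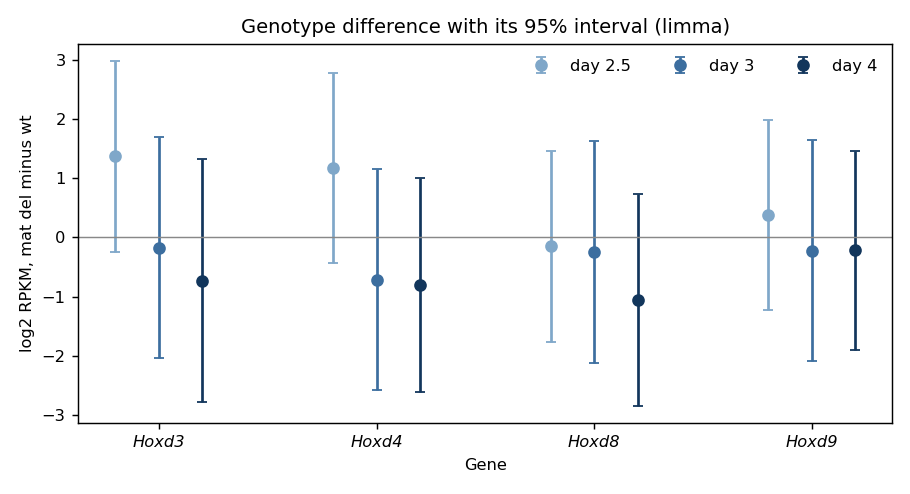
Difference in mean log2 RPKM between Smchd1 mat del and Smchd1 wt (y axis) for each gene (x axis) at days 2.5, 3 and 4; points are limma estimates and bars their 95% intervals. Every interval crosses 0.

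The third comparison was of the change between neighbouring days, Smchd1 mat del minus Smchd1 wt. No Hox gene passed for any pair of days (0.0% for each of 5 pairs), and none of the 4 had an unadjusted p under 0.05. From day 2 to day 2.5 the difference of the rises was 3.35 ± 1.82 (SE) for Hoxd3, 2.89 ± 1.82 for Hoxd4, 0.49 ± 1.82 for Hoxd8 and 0.58 ± 1.82 for Hoxd9, with limma adjusted p-values from 0.577 to 0.950. Without the library of 346039 reads they were 1.92, 1.48, -0.43 and -0.83. With line 1 only, which also leaves out the deepest library, they were 0.66, 0.69, 0.10 and -0.73. The calls of this step in Smchd1 mat del and not in Smchd1 wt are therefore not shown to differ between the genotypes.

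Differences between the 4 genes within a library were compared next, since depth cancels in them where both genes have reads, which 4 values of day 2.5 lack. Of the 18 genotype comparisons of such differences (6 pairs of genes at days 2.5, 3 and 4), 1 had groups without overlap. At day 4, Hoxd9 minus Hoxd8 was between -0.71 and -0.26 in the 4 Smchd1 wt libraries and between -0.18 and 1.53 in the 4 Smchd1 mat del libraries. The difference of the means was 0.83 (exact permutation test, two-sided p = 0.0286, the smallest that 4 against 4 allows), and it did not pass Benjamini-Hochberg adjustment over the 18 comparisons (exact test, adjusted p = 0.514). This pair was singled out after its values were seen.

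In the ground state, the targeted gene was measured first. Smchd1 levels, as counts scaled to library size (CPM), were 116 ± 8.97 (SD, n = 3 lines) in Smchd1 wt and 75.6 ± 13.6 (n = 3) in Smchd1 mat del, a log2 difference of -0.63 ± 0.14 (SE) with an unadjusted p of 0.00231 and an adjusted p of 0.992 (edgeR quasi-likelihood test over 17696 genes). The lines had between 27526359 and 126716460 counts. None of the 4 HoxD genes passed, and neither did any gene (0.0% of those tested). By edgeR 397 genes had an unadjusted p under 0.05, and DESeq2 called 0 genes and had 487 under that level.

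Hoxd3 was nearly absent in 2i + LIF, with 0, 8 and 0 counts in the Smchd1 wt lines and 1, 4 and 0 in the Smchd1 mat del lines, and did not pass the expression filter. Hoxd4 had 0.394, 0.491 and 0.293 CPM in Smchd1 wt and 0.476, 0.544 and 0.774 CPM in Smchd1 mat del. The Smchd1 mat del lines were higher on average and the groups overlapped (log2 difference 0.54 ± 0.35 SE, adjusted p = 0.992 by edgeR). Hoxd8 had 1.58, 2.17 and 0.838 CPM in Smchd1 wt and 2.09, 2.20 and 1.26 CPM in Smchd1 mat del, with the third line lowest in both genotypes (0.27 ± 0.38, adjusted p = 0.992 by edgeR). Hoxd9 had 1.68, 2.30 and 0.524 CPM in Smchd1 wt and 2.56, 3.47 and 1.83 CPM in Smchd1 mat del, again with overlap (0.79 ± 0.49, adjusted p = 0.992 by edgeR). Line numbers do not pair the lines of the genotypes.

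**Figure D5:**
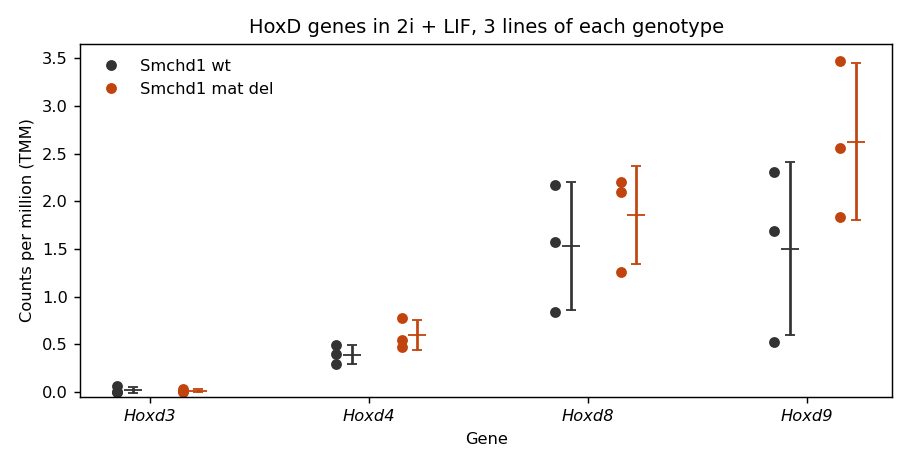
CPM, scaled with TMM (y axis), of Hoxd3, Hoxd4, Hoxd8 and Hoxd9 (x axis) in 3 Smchd1 wt (grey) and 3 Smchd1 mat del (orange) mESC lines in 2i + LIF; points are lines, and the bars beside them are the mean and SD. The lines of the genotypes overlap for each gene, and Hoxd3 is at or near 0 in all 6.

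Per kilobase of exon, the ground state levels were in the order Hoxd9, Hoxd8, Hoxd4 and Hoxd3, at 0.704 ± 0.423, 0.557 ± 0.244, 0.133 ± 0.0336 and 0.00489 ± 0.00846 CPM per kilobase in Smchd1 wt (SD, n = 3) and 1.23 ± 0.385, 0.675 ± 0.188, 0.203 ± 0.0530 and 0.00360 ± 0.00461 in Smchd1 mat del. The spreads of Hoxd9 and Hoxd8 overlapped in both. The pooled day 0 levels of Hoxd8, from other libraries that were normalized separately and sequenced with single-end reads, were 0.0449 RPKM in Smchd1 wt and 0.0511 RPKM in Smchd1 mat del, and no comparison is made across these tables.

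Around these genes, 0 of 3 other HoxD genes that passed the filter and 0 of 6 paralogues were called in 2i + LIF. Of the flanking genes, Evx2 had no count in any line, Haglr and Hoxd3os1 did not pass the filter, and Mtx2 and Lnpk differed by -0.25 ± 0.13 and -0.11 ± 0.19 (SE). The 9 Polycomb genes examined, which encode writers, readers and recruiters of the marks that silence Hox clusters, had log2 differences between -0.11 and 0.26, and 0 of 9 were called. The summed CPM of 6 pluripotency markers was between 2900 and 3110 in Smchd1 wt and between 2830 and 3120 in Smchd1 mat del. Markers of mesoderm summed to between 0.107 and 0.482 CPM, of endoderm to between 6.48 and 8.74 CPM and of neural cells to between 3.05 and 5.39 CPM over the 6 lines, and their part in the HoxD levels was not tested.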

How the data were processed

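RNA-seq values of 45 time course libraries and 6 libraries in 2i + LIF were used. Per the labels and methods, the authors trimmed reads with Trim Galore 0.4.4, mapped them with HISAT2 2.0.5 to GRCm38.p6 and quantified genes in SeqMonk. The authors deposited log2 RPKM values of 39 Hox genes and 34 factors, corrected for library size and transcript length, and raw read counts of 35591 genes, which are not normalized. The deposited counts of the 2i + LIF lines were used here, and those of the time course only to check names. The members, lists and tests were chosen with earlier results of these data known. Genes named are the 4 members, the other HoxD genes, paralogues, flanking and Polycomb genes, Smchd1, markers and, for each member, the 3 most similar genes.

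The Hox values were turned back into whole reads with GENCODE M21 exon lengths, taking 0.9 reads as no read. All 683 of 683 values between 1 and 50 reads were whole within 0.02 reads. Log2 RPKM was tested with limma 3.58.1 and counts with edgeR 4.0.16 (TMM, default expression filter, quasi-likelihood test) in R 4.3.3, each with Benjamini-Hochberg adjustment, and checked on simulated data. Exact permutation tests were run in Python 3.11.15 with scipy 1.17.1, and plots were drawn with matplotlib 3.10.9. Alternatives were log2(RPKM + 1), log2(RPKM + 0.1), values without a read as missing, a filter at 1 RPKM, edgeR on recovered reads, 1 fit over all groups, line 1 only, libraries of at least 5000000 reads, exact tests, each replicate left out, a replicate block and, for counts, RLE scaling, DESeq2 1.42.0 and no filter. Leaving out the 4 libraries low for Pou5f1 was added after seeing the data.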

Additional observations from a re-analysis of the deposited data

How the results depend on the processing

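Depth limits the early days: up to day 2 the 4 genes rest on few reads, and 10 of 45 libraries lie under 5000000. In the 12 comparisons of genotype, of its effect on the day to day change and in 2i + LIF, 0 of 4 genes were called under all 232 alternatives. Replicate numbers were checked as pairs by a strict rule. In 0 of 18 comparisons did every pair's deviations correlate over 0.1 (r between -0.56 and 0.67). A fit with the replicate number as a block changed 0 of 24 counts of the 4 genes called. This does not show that the samples are unpaired, as at day 3 replicate 1 was lowest in both genotypes for each of the 4 genes. Exact tests of 3 against 4 libraries cannot go below 0.0571. A filter at a mean of 1 RPKM gave no value for comparisons up to day 2.5. The cause of the changes below was not tested. Counts of the 4 genes under the alternatives stand without the share of all Hox genes, so they do not set the 4 genes apart.

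In Smchd1 wt from day 2 to 2.5 the count of genes called, 0, became 2 of 3 with values without a read as missing, 4 with edgeR on recovered reads, 3 with line 1 only and 3 with libraries of at least 5000000 reads, and 0 to 3 with a replicate left out (3 without day 2 replicate 4). From day 2.5 to 3 the 3 calls became 0 with line 1 only or at least 5000000 reads, and 1 to 4 with a replicate left out (1 without day 3 replicate 2 or 3 or without day 2.5 replicate 4). From day 3 to 4 the 3 calls became 1 to 4 (1 without day 4 replicate 1). From day 0 to 4, 2 of the 2 genes above the 1 RPKM filter were called in each genotype. In Smchd1 mat del from day 1 to 2 the exact permutation test, taken unadjusted (p = 0.0286), called 1 gene, Hoxd4. At day 2 Hoxd4 had 2 reads in all, and 3 of its 4 values were without a read and so set by depth. From day 2 to 2.5 the 4 calls became 0 with log2(RPKM + 1), 2 of 3 with values without a read as missing, 1 without the libraries low for Pou5f1 (chosen after seeing the data) and 1 to 4 with a replicate left out (2 without day 2 replicate 1, 1 without day 2.5 replicate 3). From day 2.5 to 3 the 2 calls became 0 with log2(RPKM + 1), edgeR, 1 fit over all groups, line 1 only or at least 5000000 reads, 4 with values as missing or without the low Pou5f1 libraries, and 0 to 4 with a replicate left out: 0 without day 2.5 replicate 1 or 2 or day 3 replicate 2, 3 or 4, and 4 without day 3 replicate 1 or day 2.5 replicate 3.

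Of 741 alternative values for 43 results on single genes, 609 kept direction and call, 65 lost a call, 30 gained one and 37 changed direction. For genotype at day 2.5, Hoxd8 was 0.13 with line 1 only and 0.13 with the replicate block (-0.53 to 0.13 with a replicate left out), and Hoxd9 was -0.40 without the low Pou5f1 library (-0.40 to 1.15). At day 3, with at least 5000000 reads, Hoxd3 was 0.13, Hoxd8 0.32 and Hoxd9 0.22 (-0.81 to 0.47, -0.61 to 0.16 and -0.73 to 0.19 with a replicate left out), and at day 4 Hoxd9 ranged from -0.56 to 0.18. From day 2 to 2.5 in Smchd1 wt, Hoxd3 was -0.12 with log2(RPKM + 1), -0.31 with log2(RPKM + 0.1) and -0.19 without the low Pou5f1 library (-0.59 to 1.57), and Hoxd4 was -0.07 with log2(RPKM + 1). For the genotype difference of that change, Hoxd8 was -0.43 with values as missing, -0.86 with edgeR, -0.28 with at least 5000000 reads and -0.03 without the low Pou5f1 libraries (-0.43 to 1.30), and Hoxd9 was -0.66, -2.06 and -1.02 in the first 3 of these and -0.73 with line 1 only (-0.83 to 1.36). In 2i + LIF, Hoxd8 ranged from -0.02 to 0.64 with a line left out.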
